A study of Mus musculus with 10 samples.

Results

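The lysosomal proton pump, the cathepsins and the LAMP proteins were followed in gastrocnemius (GAS) of diet-induced obese (DIO) mice given an anti-miR-22 antisense oligonucleotide (ASO) or saline (CTRL). Members were taken by gene symbol, as the genes whose names start with Atp6v or Atp6ap and the Cts and Lamp genes named by a single letter or digit. The table of counts held 46 of them among 21098 genes. The mice were wild-type C57BL/6J males that entered a high fat diet at 9 weeks of age and stayed on it for 9 weeks before treatment. The submitted description of the design gives their age as 30 weeks. The ASO mice received 10 mg/kg of the compound, labelled RES-010, under the skin once a week for 14 weeks, and the CTRL mice received the same volume of saline, so diet, sex and strain were shared by both groups. Each group had 5 libraries of polyA RNA, from mice numbered 1 to 5. All libraries were of whole muscle, so the fibers, macrophages, fibroblasts and other cells of the tissue were measured together.

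The lysosome is the acidic organelle in which cells break down proteins, lipids and whole organelles delivered by autophagy or endocytosis. Its acidity comes from the vacuolar ATPase, a rotary pump in which the cytosolic V1 sector splits ATP and drives protons through the membrane-bound V0 sector. The cathepsins are the proteases that work in that acid, and LAMP1 and LAMP2 are the abundant glycoproteins that line its membrane. In skeletal muscle the same machinery removes worn proteins and mitochondria, while macrophages and osteoclasts are known for high levels of several cathepsins.

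Reads had been counted on the last 500 bp of each annotated transcript, so a gene can be represented by several segments, which were summed. The libraries held 2239186 to 2632560 counts in ASO and 1606909 to 2116720 in CTRL, so every ASO library was deeper than every CTRL library, and all levels are given as CPM, counts scaled to a common library total. Of the 46 members, 22 had enough counts to be tested. Another 10 had some counts, never over 14 in a library, and 14 were listed at 0 in all 10 libraries. The members at 0 were Atp6v1e2, Atp6v1f, Atp6v1g3, Atp6v0a4, Atp6v0b, Atp6v0e2, Ctse, Ctsg, Ctsj, Ctsm, Ctsq, Ctsr, Ctss and Ctsw. For 8 of these 14, among them Atp6v1f, Atp6v0b, Ctss and Ctse, fewer than 10 bases of their segments were not shared with another segment, and the counting as stated gives shared positions to neither, so that a 0 there is not a measure of expression. The sparse members were Atp6v1b1, Atp6v1c2, Atp6v1d, Atp6v1e1, Atp6v1h, Atp6v0c, Atp6v0d2, Atp6ap1l, Ctso and Lamp3. Essential pump subunits such as Atp6v1d, Atp6v1e1 and Atp6v0c, the proteolipid of the proton-carrying ring, are not described further, and for Atp6v1e1 only 10 bases of its segments were not shared.

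Of the 22 members tested, 2 were higher in ASO, 5 were lower and 15 did not pass (the quasi-likelihood test of edgeR, with p adjusted by Benjamini-Hochberg over all 7813 genes tested and a threshold of 0.05). Over all genes tested 11.8% were called higher and 17.4% lower, 29.2% in either direction, against 31.8% of the members, so the share of members called was near that of the whole table. The median log2 fold change was −0.14 for the members and −0.03 for all genes. With another scaling the split over all genes moved from 920 higher and 1363 lower to 528 and 1819 with total counts, where the median of all genes was −0.21, and to 1262 and 1206 with upper quartile scaling. The higher members were Atp6v1g1 of the pump and Ctsa, and the lower ones Atp6ap1, Atp6v0a1 and Atp6v0e of the pump and the cysteine cathepsins Ctsl and Ctsf. The 5 libraries of each group did not overlap for Atp6ap1, Ctsf, Ctsa and Atp6v0e, that is for 18.2% of the members tested against 21.4% of all genes (7.97% without overlap and higher, 13.4% without overlap and lower).

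**Figure D1:**
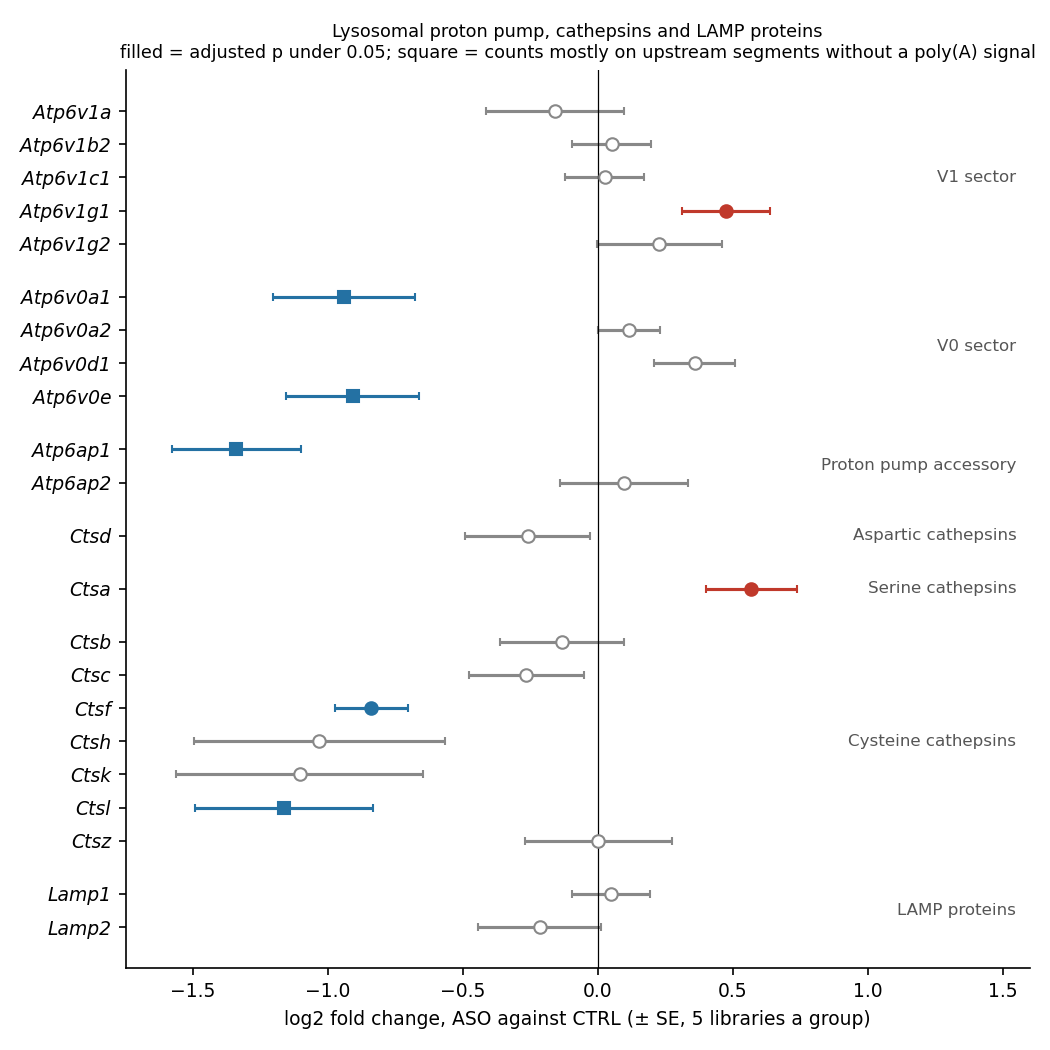
The log2 fold change of ASO against CTRL with its SE for the 22 tested members, ordered by role. Filled points passed the test, red for higher and blue for lower, and squares mark members with most of their counts on segments upstream of the gene's 3′ end that hold no poly(A) signal. The 4 squares are all lower in ASO, and Ctsf is the lower member drawn as a circle.

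For most of these calls the counted reads lay upstream of the 3′ end of the gene. A transcript made in full ends at a poly(A) site, usually preceded by the hexamer AATAAA or ATTAAA, while an annotated fragment or an intron-retaining transcript can end anywhere in the gene. Each segment was therefore also fitted on its own, and segments were sorted, after their values had been seen, by whether they lay within 50 bp of the gene's 3′ end and by whether either hexamer occurred in the last 50 bases of their transcript. Segments were sorted only if they end at the annotated end of their transcript, which held for 25 of the 38 member segments with at least 40 counts, and the counts by kind that follow, for members and for all genes, are over such segments. Of all 52361 segments placed on the annotation, 63.8% had such a signal. The members had 8 tested segments upstream without a signal, and 8 of 8 were lower in ASO, where 24.7% of all 10652 segments tested were lower and 16% higher. In the whole table the same kind of segment was lower in 55.7% of 2818 tested, with a median log2 fold change of −0.89, so the members' segments shared a direction with the table at large. The members' 3 tested upstream segments that did hold a signal, from Lamp2 and Ctsc, did not pass, where 18.1% of 977 such segments in the table were lower. At the 3′ end of the gene with a signal, 1 of 10 member segments was lower, that of Ctsf, against 3.18% of 2513. Of the same 10, 1 was higher, that of Atp6v0a2, against 25.1%. Their median log2 fold change was −0.17, against 0.32 for all 2513, and 9 of the 10 lay below the latter. At the 3′ end without a signal, the 1 member segment tested, that of Atp6v1g1, was higher (0.52, edgeR adjusted p = 0.027). Of all 497 such segments, 25.8% were higher and 11.5% lower, with a median of 0.295. Among the member segments that were tested but not sorted, the main Ctsa segment was higher (log2 fold change 0.64, edgeR adjusted p = 0.012), and those of Lamp1 (0.09), Atp6v0d1 (0.40), Atp6v1a (0.25 and −0.51), Atp6v1c1 (0.55), Atp6v1g2 (0.46), Ctsk (−1.06) and Ctsz (0.04) did not pass.

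**Figure D2:**
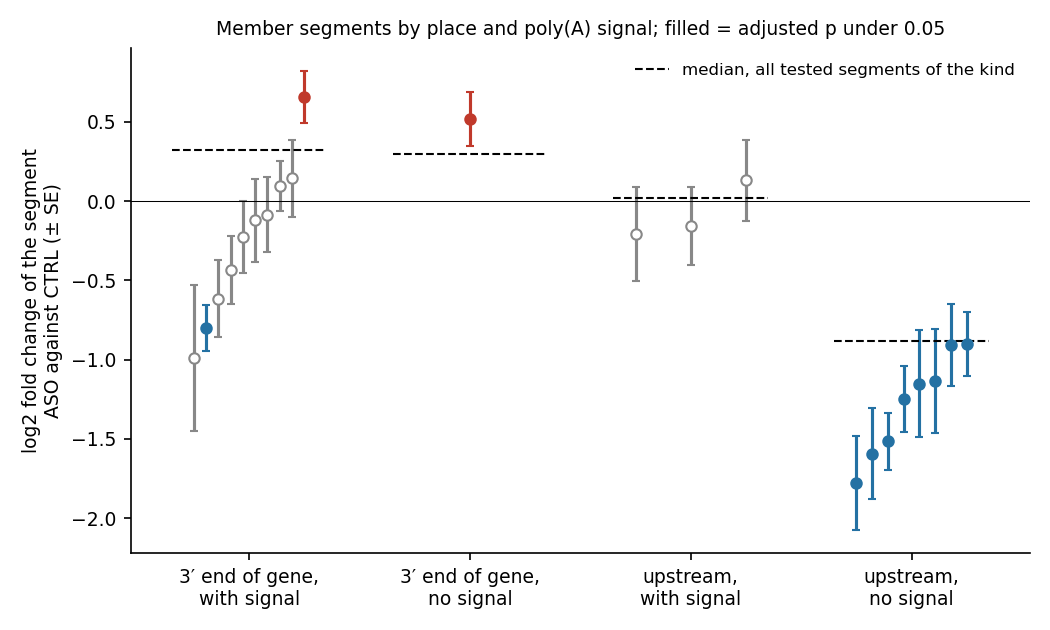
The log2 fold change of each tested member segment with its SE, by place in the gene and by the presence of a poly(A) signal, for the segments that end at their transcript's annotated end. Filled points passed the test, and dashed lines give the median of all tested segments of the kind. The 8 upstream segments without a signal lie between −1.78 and −0.90, all below the 3 upstream segments with one.

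Upstream segments without a signal took 9.23 to 13.3% of the counts of the ASO libraries and 17.7 to 24.1% of those of the CTRL libraries. The groups did not overlap in this share, so it moved with the group, and its part in the summed levels cannot be told apart from a change in the mature transcript where no other segment was counted. When these segments were left out of all genes, an alternative chosen after the data were seen, 19 members could be tested, 1 was higher and 1 lower. This fit called 574 of all 6833 genes higher and 850 lower, against 920 and 1363 of 7813 in the main fit. The lower member was Ctsf, and the higher one was Atp6v0a2 (log2 fold change 0.46 ± 0.15 SE, edgeR adjusted p = 0.047). Ctsa and Atp6v1g1, which have no such segment, were then at 0.40 and 0.31, with adjusted p of 0.087 and 0.17 (edgeR). Atp6v0a1, Atp6v0e and Ctsl then had too few counts left for a test, and Atp6ap1 had a log2 fold change of −0.63 ± 0.22 (SE) with an adjusted p of 0.066 (edgeR).

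Among the accessory subunits, Atp6ap1 encodes Ac45, which helps to assemble the V0 sector and guide the pump. Its summed level was 288, 222, 98.5, 191 and 158 CPM in the ASO libraries and 388, 471, 492, 529 and 544 CPM in the CTRL libraries. All ASO libraries were below all CTRL libraries. The means were 191 ± 70.7 and 485 ± 61.5 CPM (SD, n = 5), a 2.53-fold lower level in ASO (log2 fold change −1.34 ± 0.24 SE, edgeR adjusted p = 0.0018, exact permutation p = 0.0079, two-sided, the smallest that 5 against 5 libraries allow). In a bulk sample, fewer cells that carry a transcript and less of it in each cell cannot be told apart.

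The Atp6ap1 counts came from 4 segments on chromosome X (GRCm39), and the difference grew with distance from the 3′ end of the gene. The segment at chrX:73347796-73348295, in the 3′UTR and with AATAAA near its end, held 51.2, 44.2, 19.9, 36.7 and 34.4 CPM in ASO and 54.2, 52.7, 48.4, 60.2 and 42.7 CPM in CTRL. The groups overlapped there, with a log2 fold change of −0.44 ± 0.21 (SE, edgeR adjusted p = 0.12). Of its 500 bases only 32, at the upstream edge, were not shared with another segment. The other 3 counted segments had 303, 500 and 500 unshared bases. The segments that ended 706, 1258 and 2207 bp before the 3′ end, over coding exons and introns and without a signal, fell, with log2 fold changes of −1.25, −1.59 and −1.78 and adjusted p of 0.00056, 0.00083 and 0.00054 (edgeR). Of the gene's counts 13.5% lay on the first of these 4 segments. The log2 ratio of that segment to the other 3 was −2.02 ± 0.13 in ASO and −3.06 ± 0.34 in CTRL (SD, n = 5), a difference of 1.04 without overlap (exact permutation p = 0.0079, adjusted p = 0.020 over 10 members with more than 1 counted segment). The other accessory subunit tested, Atp6ap2, the (pro)renin receptor, was counted on a single 3′UTR segment and was at 35.6 ± 12.6 CPM in ASO and 33.2 ± 7.83 in CTRL (log2 fold change 0.10, edgeR adjusted p = 0.78).

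In the V0 sector, Atp6v0a2 encodes an isoform of the a subunit, which forms the path of the protons through the membrane. Its summed level was 119 ± 7.32 CPM in ASO and 110 ± 10.4 in CTRL and did not pass (log2 fold change 0.11 ± 0.11 SE, edgeR adjusted p = 0.48). The sum joined a pair of segments that moved in opposite directions. The segment at the 3′ end of the gene, chr5:124801020-124801519 in the 3′UTR, had 101, 102, 100.2, 98.5 and 119.8 CPM in ASO and 88.7, 82.1, 59.3, 54.9 and 55.6 CPM in CTRL. The segment 2316 bp upstream, chr5:124798704-124799203, the end of a transcript annotated for nonsense-mediated decay, had 14.5, 14.0, 14.4, 15.4 and 11.8 CPM in ASO and 35.4, 34.0, 39.5, 47.2 and 51.1 CPM in CTRL. Of the bases of this upstream segment, 339 lie in untranslated sequence of the main transcript, 103 in coding sequence and 58 in an intron. Only 323 of them were not shared with another segment. In neither segment did the groups overlap. The first rose by 0.66 ± 0.17 (SE) on the log2 scale (edgeR adjusted p = 0.0069) and the second fell by 1.52 ± 0.18 (edgeR adjusted p = 7.3e-05). The log2 ratio of the first to the second was 2.88 ± 0.26 in ASO and 0.70 ± 0.57 in CTRL (SD, n = 5, exact permutation p = 0.0079, adjusted p = 0.020), the widest difference among the 10 members for which a ratio could be taken.

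Atp6v0a1, the a subunit isoform abundant in neurons, was counted on 1 segment of 19 bp only (chr11:100953232-100953250), within the 3′UTR and 1295 bp before the 3′ end of the gene. It held 23.7, 18.7, 9.30, 10.9 and 12.3 CPM in ASO and 19.8, 29.8, 30.6, 31.9 and 31.5 CPM in CTRL. The highest ASO library lay above the lowest CTRL library, CTRL 1. The log2 fold change was −0.94 ± 0.26 (SE, edgeR adjusted p = 0.018). Atp6v0e, a small membrane subunit, had 13.0, 13.6, 12.7, 12.9 and 7.07 CPM in ASO and 16.5, 19.6, 31.1, 18.3 and 26.4 CPM in CTRL, without overlap. Its log2 fold change was −0.91 ± 0.25 (SE, edgeR adjusted p = 0.015), and 70.5% of its 353 counts came from a 64-bp segment in an intron. Atp6v0d1, which joins the rotor to the V1 sector and was counted on a single segment at the 3′ end, had 132 to 163 CPM in ASO and 92.1 to 152 CPM in CTRL, where CTRL 3 alone reached the ASO range. Its log2 fold change of 0.36 ± 0.15 (SE) did not pass (edgeR adjusted p = 0.092), and it passed without CTRL 3 (0.50, edgeR adjusted p = 0.011).

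In the V1 sector, Atp6v1g1, a subunit of the stalk that holds the V1 sector in place, was the one member to pass among 5 tested. Its level, from a single 3′UTR segment at chr4:63468488-63468987, was 460, 563, 696, 413 and 565 CPM in ASO and 393, 442, 315, 375 and 416 CPM in CTRL. The lowest ASO library, ASO 4, fell within the CTRL range. The means were 539 ± 109 and 388 ± 48.0 CPM (SD, n = 5), 1.39-fold higher in ASO (log2 fold change 0.47 ± 0.16 SE, edgeR adjusted p = 0.043, exact permutation p = 0.024). The call was lost with total counts as scaling, without a filter (edgeR adjusted p = 0.059), with a replicate block (0.10), with the most distal segment only (log2 fold change 0.18, edgeR adjusted p = 0.45), without upstream segments lacking a signal, and when any of 7 of the 10 libraries was left out. As Atp6v1g1 has a single segment, its own counts were unchanged in the fits that dropped segments, where the scaling of the libraries differed. The ATP-binding subunits of the V1 head did not pass, with log2 fold changes of −0.16 for Atp6v1a (95% interval −0.66 to 0.34) and 0.05 for Atp6v1b2 (−0.24 to 0.34). Atp6v1g2 was at 12.6 ± 1.47 CPM in ASO and 10.7 ± 2.78 in CTRL and did not pass either.

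Atp6v1c1, the subunit at which the V1 sector is attached and released, repeated the pattern of Atp6v0a2 with the sum at 65.6 ± 9.62 CPM in ASO and 64.4 ± 9.15 in CTRL. The segment 5589 bp upstream, mostly intron, had 13.0, 19.1, 10.2, 14.2 and 18.4 CPM in ASO and 24.5, 28.0, 31.6, 31.9 and 28.1 CPM in CTRL, without overlap, and fell by 0.90 ± 0.20 (SE) on the log2 scale (edgeR adjusted p = 0.0033). The 3′UTR segment, at 50.6 ± 11.7 CPM in ASO and 35.6 ± 9.31 in CTRL, had a log2 fold change of 0.55 ± 0.22 (SE) and did not pass (edgeR adjusted p = 0.060). The difference in their log2 ratio was 1.48 without overlap (exact permutation p = 0.0079, adjusted p = 0.020). Atp6v1a, with a pair of overlapping 3′UTR segments, also shifted to the downstream one, by 0.82 on the log2 ratio (exact permutation p = 0.0079, adjusted p = 0.020). In all, 4 of 10 members passed in this ratio, Atp6ap1, Atp6v0a2, Atp6v1a and Atp6v1c1, each toward the 3′ end in ASO, while those of Ctsa, Ctsc and Ctsl had differences of the opposite sign that did not pass. The ratio test was not run over all genes, so the share of the table that would pass is not known. Over 1570 genes with several counted segments, an index of a related log2 ratio per library ran from 1.17 to 1.70 in ASO and from −0.57 to 0.43 in CTRL. It was the median over genes, for segments ending at the gene's 3′ end against those at least 1000 bp upstream. Genes needed at least 50 counts on either side, which Atp6ap1 and Atp6v1a did not have. The part of sequencing coverage or RNA quality in these ratios was not tested.

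**Figure D3:**
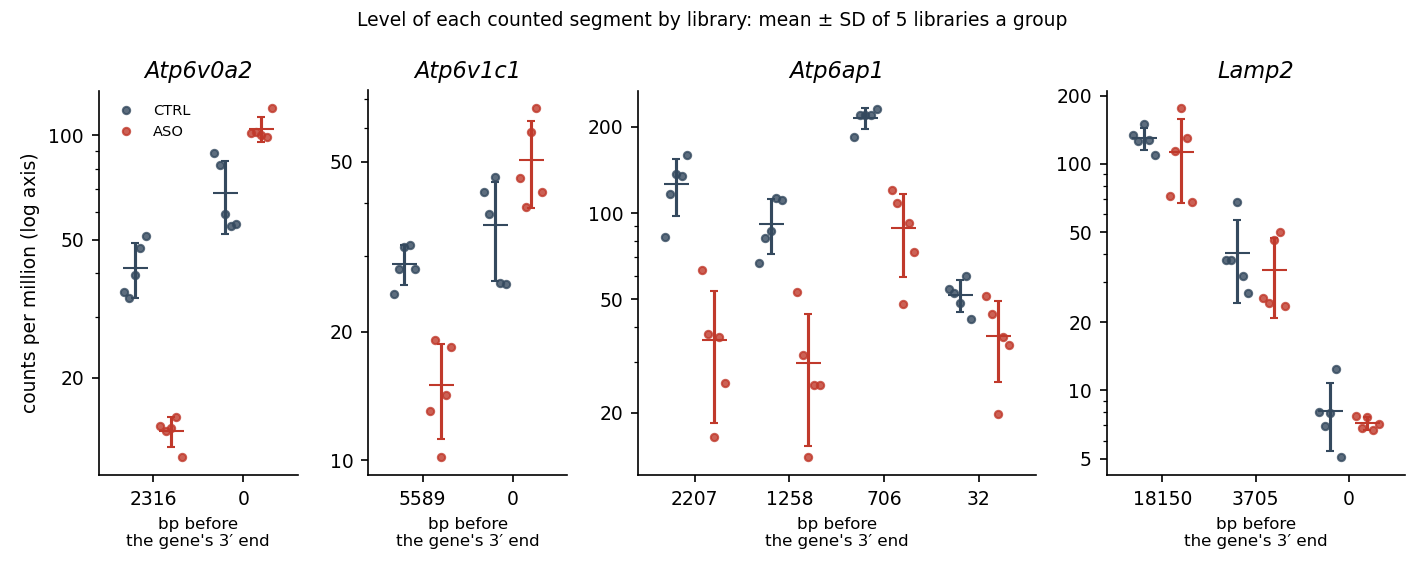
CPM of each counted segment in the 5 CTRL and 5 ASO libraries, on log axes, for 3 pump genes and Lamp2, with the mean and SD. The number under each pair is the distance of the segment's end from the 3′ end of the gene. ASO libraries lie below CTRL libraries in the upstream segments of Atp6v0a2, Atp6v1c1 and Atp6ap1, above them in the 3′ segment of Atp6v0a2, and among them in all 3 segments of Lamp2.

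Among the cathepsins, Ctsf was the member whose fall did not depend on an upstream segment. Cathepsin F is a lysosomal cysteine protease whose loss causes a neuronal storage disease. It was counted on 1 segment of 453 bp in the 3′UTR that shares no base with another gene (chr19:4910494-4910946, with AATAAA near its end). It held 36.7, 51.4, 38.5, 45.5 and 38.7 CPM in ASO and 81.1, 74.1, 81.5, 74.9 and 65.7 CPM in CTRL. All ASO libraries were below all CTRL libraries. The means were 42.2 ± 6.17 and 75.5 ± 6.44 CPM (SD, n = 5), a 1.79-fold lower level in ASO (log2 fold change −0.84 ± 0.14 SE, edgeR adjusted p = 0.0010, exact permutation p = 0.0079). In all 22 alternative fits the log2 fold change stayed between −1.13 and −0.75 and passed.

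Ctsl, a broad endopeptidase of muscle and macrophage lysosomes, had 151, 171, 66.8, 129 and 91.0 CPM in ASO and 172, 163, 499.5, 275 and 255 CPM in CTRL. CTRL 3 stood far above the other CTRL libraries, and ASO 2 lay above the lowest CTRL library. The log2 fold change was −1.16 ± 0.33 (SE, edgeR adjusted p = 0.019, exact permutation p = 0.016). The call was lost with a replicate block (edgeR adjusted p = 0.073) and without ASO 3 (0.051) or ASO 5 (0.059). Of these counts, 97.4% fell on a segment 7537 bp before the 3′ end of the gene that covers 219 bp of coding sequence and 281 bp of intron. The segment of the main transcript's 3′UTR held 70 counts in all, at 0.84 to 2.36 CPM in ASO and 2.36 to 7.30 CPM in CTRL, too few for a test.

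Ctsk, the collagen-degrading protease of osteoclasts, and Ctsh, an aminopeptidase of macrophages and lung, had log2 fold changes as large but did not pass. Ctsk was at 15.9, 14.9, 14.0, 29.6 and 4.72 CPM in ASO and 17.0, 26.1, 75.6, 23.6 and 28.6 CPM in CTRL, with a log2 fold change of −1.10 ± 0.46 (SE, edgeR adjusted p = 0.087). Ctsh was at 2.90 to 17.5 CPM in ASO and 9.33 to 32.1 CPM in CTRL, with a log2 fold change of −1.03 ± 0.46 (SE, edgeR adjusted p = 0.11). For both, CTRL 3 was the highest library of all. Without ASO 4 both passed, at −1.45 and −1.42, and without CTRL 3 they were at −0.58 and −0.73, with adjusted p of 0.28 and 0.27 (edgeR).

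Macrophage markers were read in the same libraries. Of 17 markers 9 were tested. Of these 2 were lower in ASO (the mannose receptor Mrc1 and the complement gene C1qc), against 17.4% of all genes, none was higher and 7 did not pass. Adgre1, Aif1, Cd163 and Cx3cr1 were at 0 in all libraries. The muscle fiber markers Mb, Mylpf and Tnnt3 were at 0 as well, so a 0 is not read as absence from the tissue. The summed level of the 17 macrophage markers was 424, 496, 378, 663 and 85.4 CPM in ASO and 309, 332, 1966, 745 and 674 CPM in CTRL. The groups overlapped, with CTRL 1 and CTRL 2 below 4 of the 5 ASO libraries. CTRL 3, the library with the most Ctsl, Ctsk and Ctsh, was also the highest by far in this sum, and ASO 5, the lowest in Ctsk, was the lowest in it. Ctsf did not share this order, with 81.1 CPM in CTRL 1, where the sum was lowest among the CTRL libraries, and 81.5 CPM in CTRL 3. Adipocyte markers were at 13744 CPM in CTRL 3 and at most 3758 CPM elsewhere, and summed markers of muscle fibers ran from 102011 to 164656 CPM in ASO and from 49655 to 98158 CPM in CTRL. The part of these differences in cell makeup in the level of Ctsl, Ctsk and Ctsh was not tested.

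**Figure D4:**
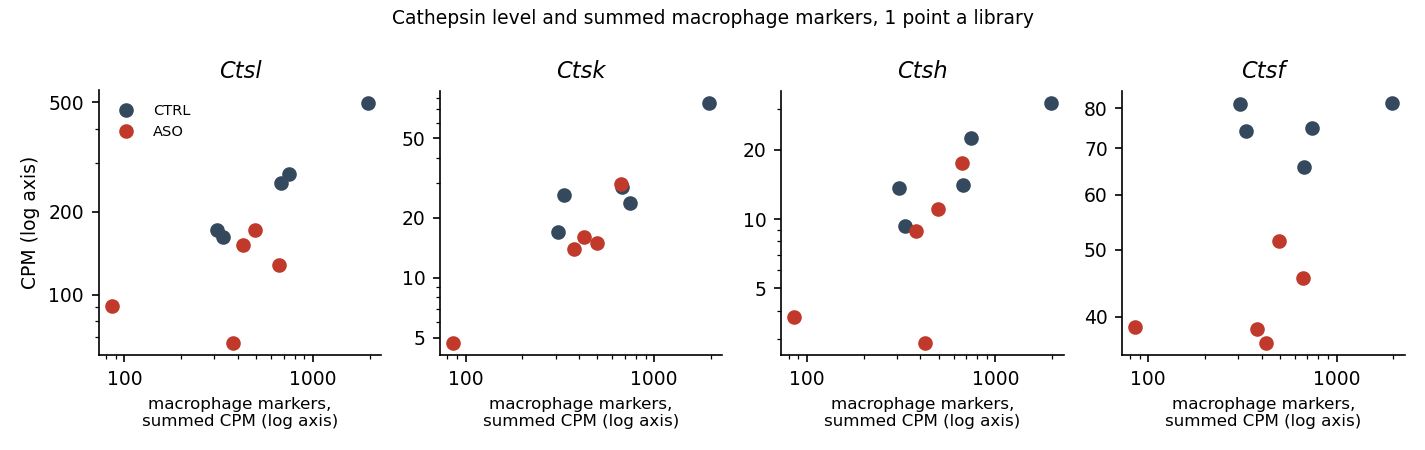
CPM of 4 cysteine cathepsins against the summed CPM of 17 macrophage markers, both on log axes, with 1 point for each library. CTRL 3, at 1966 CPM of markers, is the highest point for Ctsl, Ctsk and Ctsh, while for Ctsf the 5 CTRL libraries stand between 65.7 and 81.5 CPM at every level of the markers.

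The other cysteine cathepsins did not pass. Ctsz, a carboxypeptidase, was at 178 ± 43.8 CPM in ASO and 178 ± 81.0 in CTRL (log2 fold change 0.00, 95% interval −0.53 to 0.54), and Ctsb, the most studied lysosomal cysteine protease, at 44.9 ± 14.7 and 49.2 ± 10.6 CPM. Ctsc, which trims and activates serine proteases of immune cells, was at 87.8 ± 16.0 and 105 ± 33.8 CPM. It was counted about equally on its 3′UTR segment (log2 fold change −0.62 ± 0.24 SE, edgeR adjusted p = 0.059) and on a segment with AATAAA 19491 bp upstream (0.13 ± 0.25 SE, edgeR adjusted p = 0.71). Ctsd, the aspartic cathepsin that is the main lysosomal protease in many tissues, was at 21.1 ± 7.52 CPM in ASO and 25.3 ± 3.49 in CTRL, from reads that could be assigned over 6 bases of its segment only.

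Ctsa, the serine carboxypeptidase that also protects lysosomal β-galactosidase and neuraminidase from degradation, was the one cathepsin higher in ASO. Its level was 61.8, 62.9, 104, 91.8 and 67.9 CPM in ASO and 52.8, 57.8, 53.4, 51.3 and 46.6 CPM in CTRL, without overlap. The means were 77.7 ± 19.1 and 52.4 ± 4.03 CPM (SD, n = 5), a 1.48-fold higher level (log2 fold change 0.57 ± 0.17 SE, edgeR adjusted p = 0.023, exact permutation p = 0.0079). The call was lost with total counts (0.39, edgeR adjusted p = 0.11), with a replicate block (edgeR adjusted p = 0.053) and without CTRL 4 or CTRL 5. Of its counts 94.7% came from a 3′UTR segment of which 186 bp overlap a segment of a gene on the other strand. No strand setting is given for the counting. If the strands were not told apart, reads at those bases were given to neither gene.

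**Figure D5:**
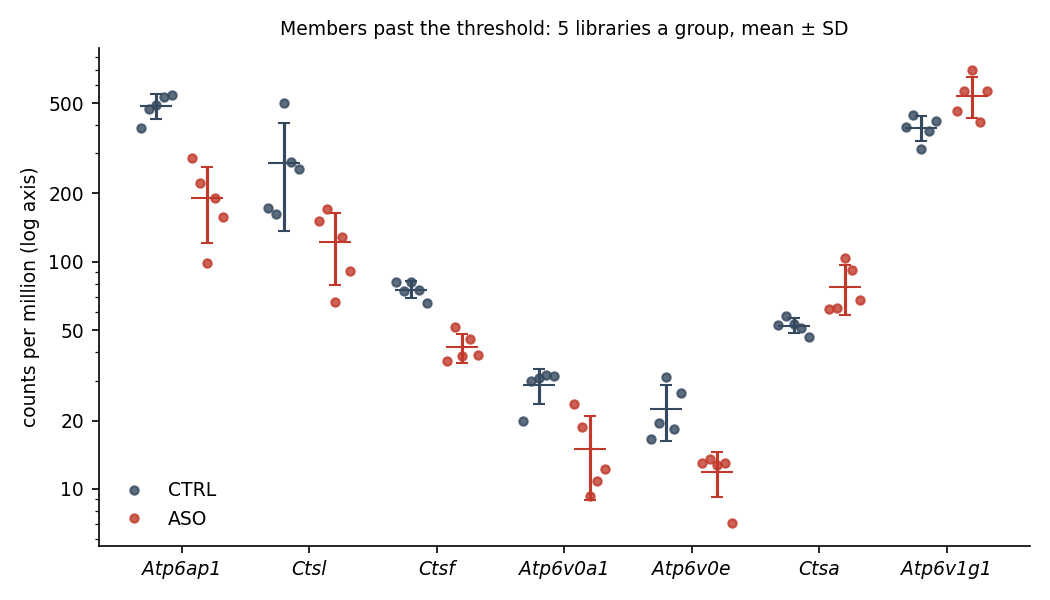
CPM on a log axis for the 7 members that passed, with 5 CTRL and 5 ASO libraries each and their mean and SD. Atp6ap1, Ctsf, Atp6v0e and Ctsa show no overlap between groups, while 1 ASO library lies within the CTRL range for Atp6v0a1 and Atp6v1g1.

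The LAMP proteins did not pass in any segment. Lamp1 had the highest level of all members, 889 to 1344 CPM in ASO and 1053 to 1296 CPM in CTRL (log2 fold change 0.05, 95% interval −0.23 to 0.33, edgeR adjusted p = 0.82), with 177 of its 500 bp shared with the other strand. Among the members counted on a single segment of 500 bp, for which CPM can be compared, Lamp1 stood at 1162 ± 95.5 CPM in CTRL, above Atp6v1g1 at 388 ± 48.0, Atp6v1b2 at 148 ± 26.4, Ctsb at 49.2 ± 10.6 and Atp6ap2 at 33.2 ± 7.83. The ranges of the last 2 overlapped, and 229 of the 500 bp of Ctsb overlap a gene on the other strand. Lamp2, whose last exon is spliced in alternative forms that give the protein different tails, was at 154 ± 55.7 and 178 ± 30.2 CPM. Its 3 transcript ends held 4.52, 22.5 and 73.0% of the counts, each with a poly(A) signal, and had log2 fold changes of −0.12, −0.21 and −0.16, none of which passed.

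The oligonucleotide is directed against miR-22, whose seed, bases 2 to 8, pairs with target sites in 3′UTRs. The mature strand is shown with the seed in capitals (RefSeq), followed by the tested members' 3′UTR windows of 30 bases that hold the matching heptamer GGCAGCT in capitals (longest annotated 3′UTR, GRCm39).
miR-22-3p: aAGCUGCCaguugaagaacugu
Ctsa, chr2:164681617-164681646, plus strand: gtgatgggctcaGGCAGCTgcagcagaggg
Atp6v1g1, chr4:63468185-63468214, plus strand: ttgggctcccatGGCAGCTgcagcagtgag
Atp6v0a2, chr5:124800371-124800400, plus strand: gccgagcctgccGGCAGCTgggtaagctgg
Ctsc, chr7:87937956-87937985, plus strand: agcagaggccatGGCAGCTacaatcccttc
Ctsd, chr7:141929686-141929715, minus strand: catcctgggctaGGCAGCTgggagccaaag

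The heptamer occurred in 5 of the 22 tested members, 22.7%, against 21.7% of 7781 tested genes with an annotated 3′UTR. Both members higher in ASO, Ctsa and Atp6v1g1, were among the 5, and none of the 5 lower members was. The log2 fold changes of the 5 were 0.57, 0.47, 0.11, −0.27 and −0.26 in the order printed. The median log2 fold change was −0.01 for all tested genes with the heptamer and −0.04 for those without. A match of letters is not evidence of a functional site.

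Promoters of lysosomal genes are known for the CLEAR element, an extended E-box bound by TFEB and its relatives. Windows from 250 bases before to 50 bases after the start of transcription (RefSeq, GRCm38.p6) were found for 16 of the 22 tested members, and CACGTG, which reads the same on both strands, occurred in 8 of the 16, 50% against 12.3% of 6098 tested genes with a window. The longer GTCACGTG, sought on both strands and containing the E-box, occurred in 4, 25% against 5.08%. One window from each of these 4 is shown, with the E-box in capitals, because they include the highest member and the cathepsin that rose.
Ctsa, chr2:164833766-164833795, plus strand: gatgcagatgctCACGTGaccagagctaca
Ctsd, chr7:142387908-142387937, minus strand: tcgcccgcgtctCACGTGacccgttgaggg
Lamp1, chr8:13159121-13159150, plus strand: gatgccgactggCACGTGaccacatcacgt
Atp6v0d1, chr8:105566050-105566079, minus strand: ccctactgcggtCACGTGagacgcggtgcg

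The 8 members with an E-box did not move together. Ctsa was higher in ASO, Ctsf, Ctsl and Atp6v0e were lower, and Ctsd, Lamp1, Atp6v0d1 and Atp6v1a did not pass. The Lamp1 window held 4 E-boxes, at −61, −45, −28 and −15 from the start. Of the MiT factors that bind these sites, 1 of 4 listed could be tested and it did not pass.

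Other lysosomal genes were taken in 8 lists, with 76 genes tested, of which 9 were higher, 20 lower and the median log2 fold change −0.10, where 11.8% of all genes were higher and 17.4% lower. Of the 20 lower genes 8 had over 50%, and of the 9 higher genes 1, of their counts on upstream segments without a signal. Without those segments 4 were higher and 11 lower among 70 tested, against 574 and 850 of all 6833 genes. The factors that assemble, traffic or regulate the pump had 2 higher and 2 lower genes among 9 tested. Tmem199, a factor for pump assembly in the secretory pathway, was at 85.1 ± 16.5 CPM in ASO and 49.8 ± 6.60 in CTRL (log2 fold change 0.77, edgeR adjusted p = 0.0040), and Tcirg1, the osteoclast a subunit of the pump, at 34.5 ± 14.0 and 17.1 ± 7.19 (1.02, edgeR adjusted p = 0.049). Oxr1, a partner of the V1 sector, was at 13.5 ± 6.00 and 76.4 ± 22.3 CPM (−2.49, edgeR adjusted p = 0.00024), the steepest fall among these lists, and Wdr7, a rabconnectin that aids pump assembly, at 4.78 ± 1.86 and 13.3 ± 4.31 (−1.46, edgeR adjusted p = 0.0069). Without upstream segments lacking a signal Wdr7 did not pass (−0.72, edgeR adjusted p = 0.13). Of the Tcirg1 counts 77.7% lay on such segments, and without them Tcirg1 was still higher (1.45 ± 0.47 SE, edgeR adjusted p = 0.045).

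Among 28 other hydrolases tested, 2 were higher and 6 lower. The smallest p were those of Tpp1, a tripeptidyl peptidase that acts beside the cathepsins, at 54.5 ± 9.43 CPM in ASO and 128 ± 32.6 in CTRL (log2 fold change −1.23), of Ppt1, the palmitoyl thioesterase (−1.0), of the ceramidase Asah1 (−1.40) and of the mannosidase Man2b1 (−2.02), with adjusted p of 0.00080, 0.0066, 0.0088 and 0.012 (edgeR). Without upstream segments lacking a signal, Ppt1 was still lower (−1.19, edgeR adjusted p = 0.0067), Tpp1 was at −0.41 (edgeR adjusted p = 0.082), and Asah1 and Man2b1 could not be tested. Of 12 membrane proteins, 1 was higher and 3 lower. Mcoln1, the calcium channel of the lysosome membrane, was at 16.1 ± 3.40 CPM in ASO and 6.84 ± 2.58 in CTRL (log2 fold change 1.22, edgeR adjusted p = 0.0082), and Mfsd8, Ostm1 and Laptm4b fell by 1.29, 0.64 and 1.03 on the log2 scale, but 96.7% of the Laptm4b counts lay on upstream segments without a signal and it could not be tested without them.

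The genes of lysosome fusion and movement had 2 higher and 5 lower members among 11 tested. Arl8b, the GTPase that couples lysosomes to kinesin, was at 69.7 ± 15.7 CPM in ASO and 194 ± 46.7 in CTRL (log2 fold change −1.47, edgeR adjusted p = 0.00043), and 83.1% of its counts lay on upstream segments without a signal. Without them it was at 0.20 (edgeR adjusted p = 0.52). Rab7, the GTPase of late endosomes, at 225 ± 41.7 and 417 ± 37.6 CPM (−0.89, edgeR adjusted p = 0.0012), had 95.6% of its counts on such segments. On the small remainder it was still lower (−1.18, edgeR adjusted p = 0.0021). Vps33a and Vps11 of the tethering complexes were lower by 0.73 and 0.62 on the log2 scale, and of these Vps33a alone remained so without the upstream segments. The nutrient sensing genes, which anchor mTORC1 to the lysosome, had Lamtor4 higher (0.65) and Lamtor3 and Rraga lower (−0.55 and −0.39) among 8 tested, the sorting genes had Igf2r higher (0.48) and the retromer subunits Vps29 and Vps35 lower (−0.57 and −0.48) among 5, and neither of 2 cathepsin inhibitors passed. Without upstream segments lacking a signal Igf2r (0.32, edgeR adjusted p = 0.15) and Vps29 (−0.31, edgeR adjusted p = 0.28) did not pass. Of the Vps29 counts 83.2% lay on such segments. None of the Igf2r counts did, so for Igf2r the counts were unchanged and only the scaling of the libraries differed.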

How the data were processed

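Gastrocnemius RNA of 10 mice was prepared by the authors with the Illumina stranded mRNA kit, trimmed with fastp, mapped to GRCm39 with STAR and counted with featureCounts. The deposited values are raw counts per transcript segment, restricted by the authors to the last 500 bp. The paper gives biased sequencing coverage as the reason for this restriction. It gives no RNA quality for single libraries. The stated counting options give no strand setting. Another 4 per-sample columns match no sample and were not used. Segment IDs were mapped to genes with GENCODE M39 (52361 of 52423, 62 unmatched with 0.0197% of counts) and summed per gene. The main test was edgeR 4.0.16 (quasi-likelihood, TMM, filterByExpr, adjusted p under 0.05 by Benjamini-Hochberg over 7813 genes), checked on simulated data. CPM used TMM-scaled totals. Exact permutation tests were two-sided over all 252 labellings of log2(CPM + 1), with a pseudocount of 0.5 in segment ratios, for members with at least 40 counts on either side. Intervals are 1.96 SE. Alternatives comprised RLE, total-count and upper quartile scaling, 2 other filters (none, or at least 10 counts in every library), DESeq2, limma-voom, a replicate block, omission of each library, the most distal segment only, thinning, and omission of the 20 highest genes. Every member is accounted for; those past the threshold and the highest of each role are given with values, with up to 4 genes of smallest p from each other lysosomal list. The members, lists and segment classes were chosen with earlier results of these data known. The labels number the mice of a group but say nothing of litters or cages, so p-values measure the spread between these libraries.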

Additional observations from a re-analysis of the deposited data

Results flagged for a closer look

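In 44 groups of 5 libraries (22 members in each arm), 8 had a library far from the other 4. The members share the same libraries and the rule was not run over all genes. The share of the table that it would flag is therefore not known. The figure given is the gap to the nearest library divided by the range, against a critical value of 0.71. ASO 5 was the highest of its group for Atp6v0a2 (0.862) and the lowest for Atp6v0e (0.861, 7.07 CPM against 12.7). ASO 4 was the highest for Atp6ap2 (0.787) and Atp6v0d1 (0.713), and ASO 3 the lowest for Lamp1 (0.773, 889 CPM against 1240). CTRL 3 was the highest for Ctsk (0.801, 75.6 CPM against 28.6) and Atp6v0d1 (0.828), and CTRL 1 the lowest for Atp6v0a1 (0.833).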

How the results depend on the processing

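The 7 members past the threshold kept their direction wherever they were fitted, and Ctsf passed in every fit. Ctsd, Ctsh, Ctsk, Lamp2, Atp6v0d1 and Atp6v1g2, which did not pass in the main fit, kept theirs too. The count of members higher, 2, became 0 with total counts, 1 without a filter, 0 with a replicate block, 0 with the most distal segment only and 1 without upstream segments lacking a signal, and 0 to 2 when a library was left out (0 without CTRL 4 or CTRL 5). The count lower, 5, became 2 with the most distal segment only and 1 without upstream segments lacking a signal, and 3 (without ASO 5) to 7 (without ASO 4). With the most distal segment only, 232 of all 5087 genes tested were higher and 335 lower. Without upstream segments lacking a signal, 574 of all 6833 were higher and 850 lower. For the other lysosomal lists, the 9 higher became 3, 5, 5, 3, 0 and 4 with total counts, no filter, at least 10 counts, the replicate block, the most distal segment and without upstream segments lacking a signal, and 4 to 9 when a library was left out. The 20 lower became 10 and 11 with the last 2 of these and 17 to 21 when a library was left out. The replicate numbers did not pair the mice (correlations of same-numbered libraries −0.43 to 0.16), and the block left 4 members lower. Ctsl was lost under the block and without ASO 3 or ASO 5, and Atp6v0a1 without ASO 5.

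Values that changed sign did so around 0 and did not pass, apart from the upstream segments of Atp6v0a2 (−1.52) and Atp6v1c1 (−0.90). With total counts these were Atp6ap2 −0.070, Atp6v0a2 −0.067, Atp6v1b2 −0.14, Atp6v1c1 −0.15, Ctsz −0.20 and Lamp1 −0.13, with at least 10 counts Atp6v1c1 −0.0047 and Ctsz −0.034, with the most distal segment Atp6ap2 −0.19, Atp6v1b2 −0.25, Ctsz −0.31 and Lamp1 −0.23, and without upstream segments lacking a signal Atp6ap2 −0.064, Atp6v1b2 −0.11, Ctsz −0.17 and Lamp1 −0.11. On single segments Atp6v1a (0.25) and Ctsc (0.13) turned. When a library was left out the ranges were −0.13 to 0.20 for Atp6ap2, −0.36 to 0.0100 for Atp6v1a, −0.011 to 0.16 for Atp6v1b2, −0.046 to 0.098 for Atp6v1c1, −0.30 to 0.0059 for Ctsb and −0.12 to 0.30 for Ctsz. Atp6ap2, Atp6v1b2, Ctsz and Lamp1 were each counted on a single segment at the 3′ end of the gene. Their counts were thus unchanged with the most distal segment and without upstream segments lacking a signal, where the scaling differed. The causes were not otherwise tested. Low counts limited what could be tested to 22 of 46 members.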
